A study of Mus musculus with 48 samples.

Results

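The nuclear-encoded subunits of the respiratory chain were examined in mouse colon. They were taken by symbol: protein-coding genes off the mitochondrial chromosome whose names begin with Ndufa, Ndufb, Ndufc, Ndufs or Ndufv and a digit, with Sdha to Sdhd, with Uqcr, with Cox and a digit from 4 to 8 and a letter from a to c, or with Atp5. This rule gave 83 of the 55401 genes counted, of which 37 belong to complex I, 4 to complex II, 8 to complex III, 16 to complex IV and 18 to complex V. Of these, 77 had enough reads to be tested. Ndufa4 and Ndufa4l2 were kept with complex I by their symbols, although their products work in complex IV.

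Polyadenylated RNA of whole colon was sequenced from 48 adult male C57BL/6J mice, which were killed in constant darkness, on its second day, at CT1, CT5, CT9, CT13, CT17 or CT21 (circadian time in hours, with 4 mice per genotype and time). Bmal1IEC-/- mice carried Bmal1fl/fl and a Villin-driven Cre, which deletes the clock gene Bmal1 (Arntl) in the intestinal epithelium and leaves the muscle, connective and immune cells of the sample with an intact gene. Their control littermates carried the floxed alleles without Cre, so that both genotypes shared Bmal1fl/fl, chow ad libitum and single housing with a running wheel. Unless stated otherwise, 46 mice entered the tests, since the study's own normalisation left out the Bmal1IEC-/- mice SV384 and SV385 at CT1. The study's methods state that samples of low sequencing quality were removed, but name none. Whether these mice were left out for that reason is not stated there.

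The respiratory chain sits in the inner mitochondrial membrane. Complex I takes electrons from NADH and complex II from succinate, complex III passes them from ubiquinol to cytochrome c, and complex IV hands them to oxygen. Complexes I, III and IV pump protons, and complex V, the ATP synthase, uses the resulting gradient to make ATP. Most subunits are encoded in the nucleus, and a core set by the mitochondrial genome. Surface cells of the colon draw much of their energy from the oxidation of butyrate made by the microbiota, which feeds this chain.

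The gene counts of a mouse summed to between 3144997 and 4785844. The subunits together took 1.22% to 1.53% of the counts in the 24 control mice and 1.32% to 1.65% in the 22 Bmal1IEC-/- mice of the tests. Counts of 0 allow up to 3 counts, and this floor covers counting error only. As a check of the labels, the Rev-erbα gene Nr1d1, a direct target of BMAL1, fell by 1.49 ± 0.12 on the log2 scale (SE; adjusted p = 1.57e-13 in edgeR's quasi-likelihood test) and was lower in Bmal1IEC-/- mice at all 6 times. Reads of Arntl itself, counted over the whole gene in a mixed tissue, cycled in control mice and much less in Bmal1IEC-/- mice (log2 amplitude 1.75 against 0.23, adjusted p of the difference 4.13e-13 in edgeR). SV384 and SV385 stood apart from the other mice, with 189 and 531 genes over 2-fold away from their expected level, against 54 or fewer in the others. In SV385 the 7 smooth muscle markers summed to 916 CPM (counts scaled to a common library total), against 3290 to 5799 in the 46 mice, and the 9 epithelial markers to 25780 CPM, against 12933 to 19548. In SV384 these sums were 3481 and 21050 CPM.

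The subunits differed widely in level. Levels between genes are given here per length, as CPM per kilobase of the principal transcript in the 24 control mice, and values between mice of a single gene as CPM scaled by TMM. The median subunit of complex I had 79.8 CPM per kilobase, that of complex II 178, of complex III 181, of complex IV 298 and of complex V 250. In complex V, Atp5b, the catalytic β subunit, was highest (819 ± 49.6 CPM per kilobase, SD, n = 24) and Atp5s, a coupling factor, lowest (8.73 ± 1.58). In complex III, Uqcrh, the hinge protein at cytochrome c1, reached 651 ± 39.4 and Uqcrq, a small structural subunit, 114 ± 34.4. Cox6c led complex IV at 476 ± 33.5, and Cox6b2, the testis form of subunit VIb, was lowest at 11.3 ± 2.97. The membrane anchors Sdhd (236 ± 15.0) and Sdhc (53.4 ± 3.56) marked both ends of complex II. Among genes kept with complex I, Ndufa4 was highest at 252 ± 17.6 and Ndufb2, an accessory subunit, lowest at 29.2 ± 6.10. The Ndufb2, Uqcrq and Cox6c values rest on the shortest well-supported principal transcript. With the longest they would be 3.04, 30.3 and 324 CPM per kilobase. Cox6c would then lie below Cox8a (443), so its lead in complex IV depends on this choice. Some other levels depend on it too, such as that of Atp5g1 (340 or 43.0). In addition, 50.3% of the exon bases of Ndufb2 lie under other annotated genes, on both strands, and reads there may not have been counted.

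**Figure D1:**
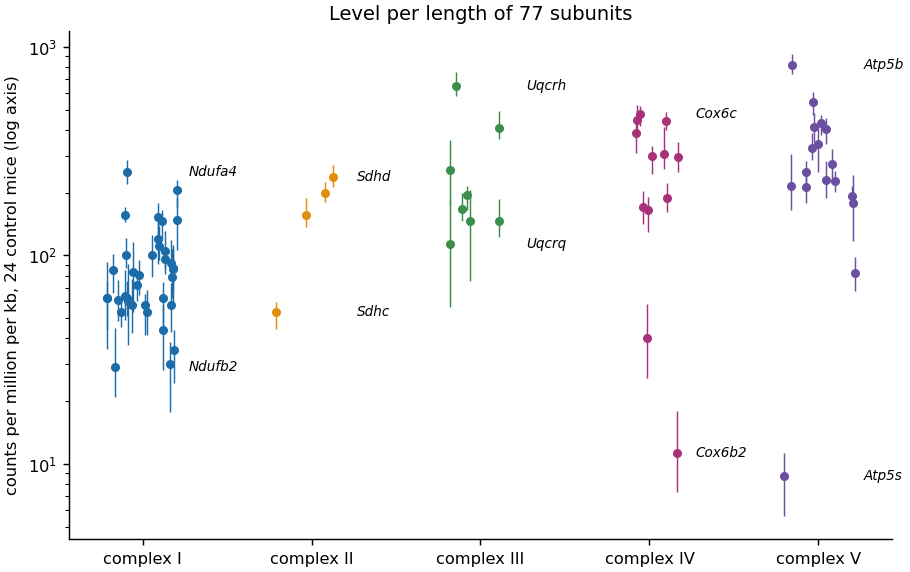
Level of each of the 77 tested subunits per length in the 24 control mice, as CPM per kilobase of the principal transcript on a log axis, by complex. Where several principal transcripts tie, the shortest is used. Points are means and bars run from the lowest to the highest mouse. Atp5b sits at 819 and Atp5s at 8.73, and the highest and lowest subunit of each complex are named.

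Of the tissue isoforms, the forms that most tissues use dominated. Cox6a1 ranged from 177 to 264 CPM in control mice with a median of 221, whereas its muscle form Cox6a2 was at 0 in 19 of the 24 control mice and never exceeded 2 counts. Cox8a had a median of 247 CPM in control mice, against 0.46 CPM for Cox8b, the form of brown fat and heart, and no counts in any mouse for Cox8c. Cox7b2 had no counts either, against a median of 299 CPM for Cox7b. Cox6b2 and Cox7a1, which is known from contractile muscle, were low but present in every mouse, with medians of 4.99 and 16.3 CPM against 274 CPM for Cox6b1 and 192 CPM for Cox7a2. Ndufa4l2, a form induced by low oxygen, had 10 counts at most. A second locus with the symbol Atp5o (ENSMUSG00000116933.1), all of whose exon bases lie under other genes, had none. Ndufa4l2, Cox6a2, Cox7b2, Cox8b, Cox8c and this locus are the 6 genes left untested. The 3 genes for the c subunit of the ATP synthase, which encode the same mature protein, were all expressed, with control medians of 207 CPM for Atp5g1, 90.9 CPM for Atp5g2 and 392 CPM for Atp5g3.

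To see whether the epithelial clock bears on this set, Bmal1IEC-/- and control mice were compared over all 6 times. Subunits were slightly but broadly higher in Bmal1IEC-/- colon. Of 77 subunits, 28 rose (36.4%) and none fell, against 11.8% of the 13478 genes called at an adjusted p under 0.05, 5.41% higher and 6.44% lower (quasi-likelihood F test of edgeR, p-values adjusted over every gene tested by the Benjamini-Hochberg method). An unadjusted p under 0.05 was reached by 50 subunits (64.9%), against 24.8% of all genes. The fitted value was above 0 for 75 of 77 subunits, against 50.9% of all genes. It was also above 0 for 74 of the 76 mitochondrial ribosomal proteins tested. The changes were small: the median subunit was 6.66% higher (log2 0.09, against 0.00 for all genes), the called subunits rose between 1.07-fold and 1.14-fold, and none passed a fold of 1.5, which 1.17% of all genes passed with the adjusted p. In no subunit did the mice of both genotypes separate completely, and the share of all genes that did so was not counted. Of all 77 subunits, 42 were higher in Bmal1IEC-/- mice at all 6 times, against 6.87% of all genes. Of the 28 called subunits, 25 were higher at all 6 times and 3 at 5 of them. Since the calls came from the same mice and times, the count among the called adds no separate support.

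**Figure D2:**
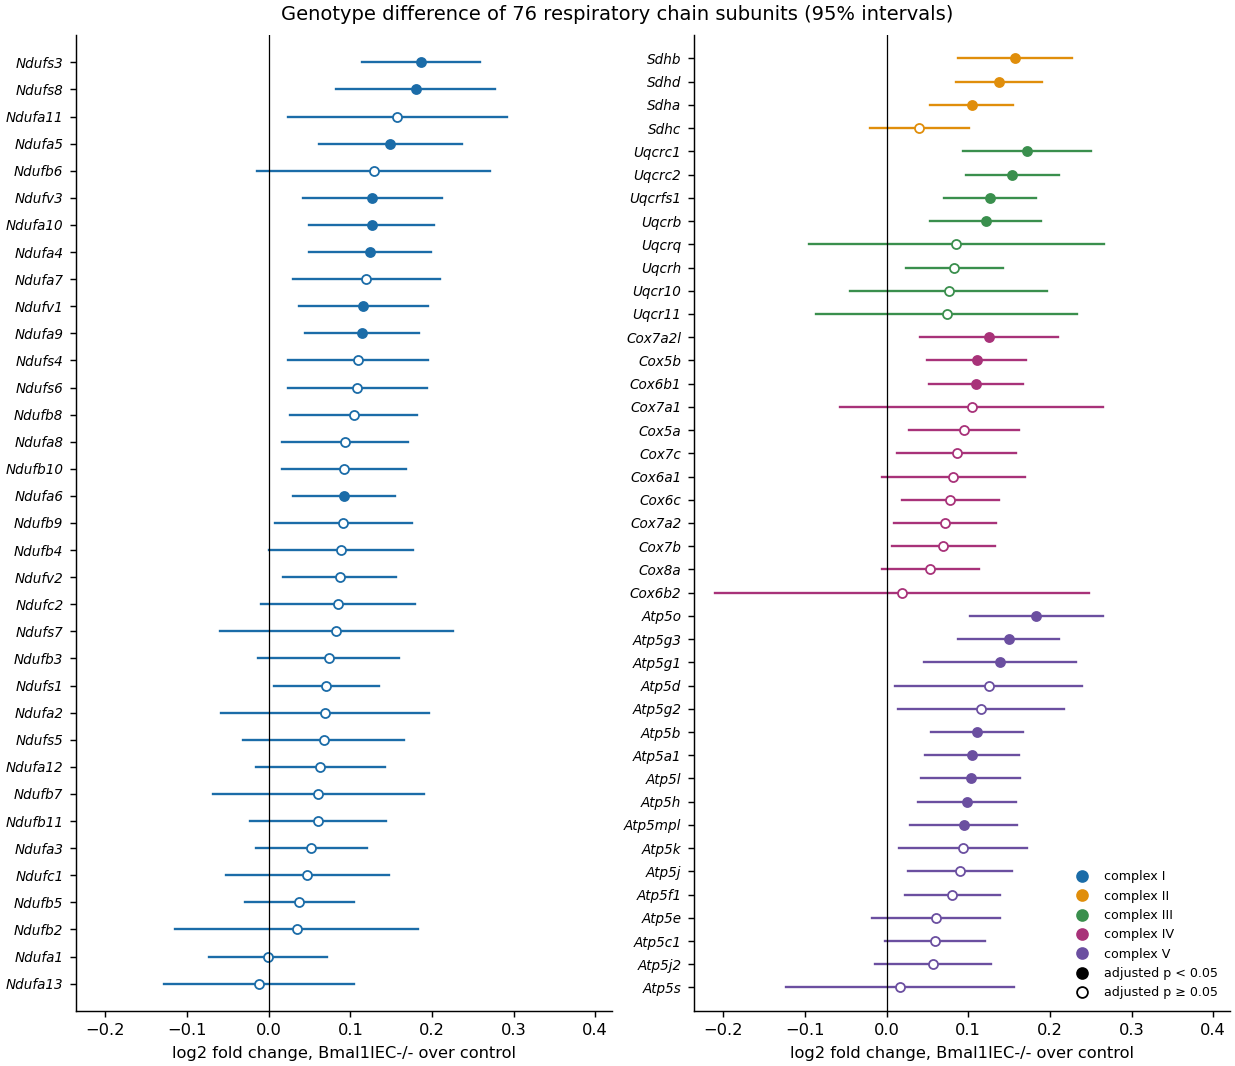
Log2 fold change of Bmal1IEC-/- over control for 76 of the 77 subunits, by complex, from the model of genotype and circadian time over 46 mice. Points are fitted values, bars 95% intervals, and filled points passed an adjusted p of 0.05. All but Ndufa13 and Ndufa1 lie above 0, and all 27 filled points lie between 0.09 and 0.19.

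In complex I, 10 of 36 subunits rose. The strongest evidence was for Ndufs3 (GRCm38 chr2:90894634-90904827, minus strand), a core subunit of the arm that reaches into the matrix. It ranged from 65.4 to 112 CPM with a median of 81.9 in control mice and from 70.4 to 113 CPM with a median of 93.9 in Bmal1IEC-/- mice. The Bmal1IEC-/- median thus lay above most control mice while the ranges overlapped, and the log2 difference was 0.19 ± 0.04 (SE; adjusted p = 0.000188). The core subunits Ndufs8, which holds iron-sulphur clusters, and Ndufv1, which holds the flavin, rose too (log2 0.18 and 0.12). Ndufa5, Ndufa6, Ndufa9, Ndufa10 and Ndufv3, accessory subunits, also rose, as did Ndufa4 of complex IV. Only Ndufa13, which is also known as the cell death factor GRIM-19, and Ndufa1 had fitted values below 0 (log2 -0.01 and -0.001), and their 95% intervals reached up to 0.10 and 0.07.

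Complex II, which also is a step of the citric acid cycle, rose in 3 of its 4 subunits. Sdhd (chr9:50596357-50603812, minus strand) ranged from 262 to 333 CPM with a median of 292 in control and from 272 to 371 CPM with a median of 325 in Bmal1IEC-/- mice (log2 difference 0.14 ± 0.03, adjusted p = 0.000152). Sdhb (chr4:140961203-140979193, plus strand), the iron-sulphur subunit, ranged from 157 to 216 CPM with a median of 173 in control and from 171 to 261 CPM with a median of 197 in Bmal1IEC-/- mice (0.16 ± 0.03, adjusted p = 0.00118). For both genes the lower end of the ranges was shared and the highest Bmal1IEC-/- mice exceeded all controls. Sdha, the flavoprotein, rose by a log2 of 0.10 ± 0.03 (adjusted p = 0.00305). Sdhc stayed under the threshold (0.04, 95% interval -0.02 to 0.10).

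Complex III rose in 4 of 8 subunits, and both core proteins were among them. Uqcrc2 (chr7:120635176-120659524, plus strand) had the smallest p of all 77 subunits. It ranged from 314 to 409 CPM with a median of 374 in control mice and from 353 to 479 CPM with a median of 412 in Bmal1IEC-/- mice (log2 difference 0.15 ± 0.03, adjusted p = 8.91e-05). The Bmal1IEC-/- median thus lay above the highest control mouse, although the ranges overlapped. Uqcrc1 (chr9:108936633-108949623, plus strand) ranged from 203 to 307 CPM with a median of 242 in control and from 226 to 379 CPM with a median of 276 in Bmal1IEC-/- mice (0.17 ± 0.04, adjusted p = 0.00153). Uqcrfs1 (chr13:30540308-30545362, minus strand) encodes the Rieske iron-sulphur protein. It ranged from 199 to 272 CPM with a median of 228 in control and from 217 to 276 CPM with a median of 251 in Bmal1IEC-/- mice (0.13 ± 0.03, adjusted p = 0.00111). Uqcrb also rose (0.12 ± 0.03, adjusted p = 0.0119), whereas the small subunits Uqcrq, Uqcr10 and Uqcr11 had fitted values of 0.09, 0.08 and 0.07 and 95% intervals that reached below 0.

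Among the genes kept with complex IV by symbol, 3 of 12 were higher in edgeR: Cox6b1 (0.11 ± 0.03, adjusted p = 0.00735), Cox5b (0.11 ± 0.03, adjusted p = 0.0104) and Cox7a2l (0.13 ± 0.04, adjusted p = 0.0418). Ndufa4, which was also called, was counted with complex I, so that the shares of complexes I and IV depend on this grouping. All 12 fitted values were above 0. The muscle and testis forms gave no call, and for Cox6b2 the 95% interval ran from -0.21 to 0.25.

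In complex V, 8 of 17 subunits rose. Atp5o (ENSMUSG00000022956.11, chr16:91925214-91931687, minus strand), a subunit of the peripheral stalk, ranged from 56.5 to 82.5 CPM with a median of 69.0 in control and from 67.8 to 101 CPM with a median of 78.7 in Bmal1IEC-/- mice (log2 difference 0.18 ± 0.04, adjusted p = 0.00117). Atp5g3 (chr2:73908447-73911326, minus strand) ranged from 335 to 433 CPM with a median of 392 in control and from 385 to 490 CPM with a median of 428 in Bmal1IEC-/- mice (0.15 ± 0.03, adjusted p = 0.000435). For both, the lowest Bmal1IEC-/- mouse lay close to the middle of the controls. The catalytic core genes Atp5a1 and Atp5b rose by 0.10 and 0.11 (adjusted p = 0.0098 and 0.00528), and Atp5g1, Atp5h, Atp5l and Atp5mpl completed the list. Of the exon bases of Atp5o, 48.6% lie under other annotated genes, and of Uqcrc2 26.6%.

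Markers of other cell types moved with genotype as well. All 7 smooth muscle markers had values below 0 (median log2 -0.20, 4 called lower, with Synpo2 at -0.24 and Cnn1 at -0.24). Their sum ran from 3713 to 5799 CPM in control and from 3290 to 5401 CPM in Bmal1IEC-/- mice. The 6 fibroblast markers (median -0.14, 1 called lower, Dcn), the 6 of enteric neurons and glia (-0.19, 1 called lower, S100b) and the 3 of endothelium (-0.17, 2 called lower, Kdr and Pecam1) also had only values below 0. The summed epithelial markers were alike in both genotypes (medians of 15652 and 15635 CPM), but moved apart gene by gene: Krt18, Krt8 and Cdh1 rose, and Slc26a3 (-0.77) and Epcam fell. Of 6 goblet cell markers 3 rose, with Zg16 at 0.70, and 1 fell, Clca1 at -0.62. No marker of T cells, B and plasma cells, macrophages, skeletal muscle, adipocytes or erythrocytes was called, and none of pancreas had enough reads. Still, all tested markers of T cells (3, median -0.29), macrophages (5, -0.08), adipocytes (3, -0.97) and erythrocytes (2, -0.37) had values below 0. The 1 tested marker of B and plasma cells (0.27) and 1 of 2 of skeletal muscle were above 0. With the smooth muscle marker level of each mouse in the model, the subunit median was 0.11, 75 of 77 values stayed above 0 and 23 subunits were called, 17 of which were among the 28. Beyond that value, the part of these cell types in the subunit difference was not tested. In bulk tissue a change in the number of cells of a type cannot be told apart from a change in RNA per cell.

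The promoters of the subunits were scanned as a description. RefSeq promoters of GRCm38.p6, 250 bases before to 50 after the start, were matched to 64 of the 77 subunits and to 10002 protein-coding genes tested, and searched on both strands for 8 short motifs. The motif of nuclear respiratory factor 1 (NRF1), 10 letters long, was in 16 of 64, or 25% of subunit promoters and in 10.3% of all promoters. The ETS motif CCGGAAG, which the GABP factor binds, was in 23.4% against 18%, and the YY1 motif AAGATGGC in 12.5% against 4.75%. Among the 23 called subunits with a promoter and the 41 not called, NRF1 was in 34.8% and 19.5%, ETS in 30.4% and 19.5%, and YY1 in 4.35% and 17.1%. The E-box CACGTG, the letters that CLOCK and BMAL1 bind, was in 7.81% against 9.81%. Of the 5 subunits that held it, 4 were called, which is 17.4% of the called against 2.44% of those not called. This contrast rests on 4 promoters against 1, and the share among all called genes was not counted. In Atp5g1, 1 of these 4, the letters lay in an annotated exon. The D-box TTANGTAA (3.12% against 1.33%; 4.35% of the called and 2.44% of the others) and the cyclic AMP response element TGACGTCA (6.25% against 3.19%; 8.7% and 4.88%) were rare, and the ROR element was in none against 0.16%. The letters TCAAGGTCA, bound by the estrogen-related receptors, were in 2 subunits, Sdhd and Atp5g3, both called, which is 3.12% against 0.24% of all promoters. In Sdhd they lay in the first exon. Atp5g3 held these letters and an E-box, while Atp5l and Ndufv1 held an E-box, and their upstream stretches outside annotated exons are given here because they carry these letters. The gene strand is given 5′ to 3′ and capitals mark motif matches; TGACCTTGA and CTTCCGG are the reverse complements of the ERR and ETS letters.
Atp5g3 E-box, chr2:73911479-73911576, minus strand: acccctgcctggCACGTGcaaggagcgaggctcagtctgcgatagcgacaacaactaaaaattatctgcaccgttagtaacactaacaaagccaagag
Atp5g3 ERR, chr2:73911327-73911458, minus strand: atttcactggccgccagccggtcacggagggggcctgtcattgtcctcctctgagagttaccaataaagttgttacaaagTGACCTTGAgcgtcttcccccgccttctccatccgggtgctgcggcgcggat
Atp5l E-box and ETS, chr9:44920804-44920969, minus strand: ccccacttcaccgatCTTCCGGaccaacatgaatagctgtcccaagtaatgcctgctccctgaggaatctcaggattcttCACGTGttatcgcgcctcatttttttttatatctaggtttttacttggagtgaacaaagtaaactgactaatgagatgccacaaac
Ndufv1 E-box, chr19:4012839-4013004, minus strand: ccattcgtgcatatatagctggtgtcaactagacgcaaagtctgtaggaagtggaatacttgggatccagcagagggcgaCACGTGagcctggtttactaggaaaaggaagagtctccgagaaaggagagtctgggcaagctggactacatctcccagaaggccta
A match of letters is not a bound site, and binding was not measured.

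Next, the difference was followed over the circadian day. Summed over all subunits, control mice averaged 12492 ± 420 CPM at CT1 (SD, n = 4), 13440 ± 461 at CT5, 13991 ± 979 at CT9, 13965 ± 684 at CT13, 13153 ± 473 at CT17 and 13041 ± 450 at CT21. Bmal1IEC-/- mice averaged 14454 ± 297 CPM at CT1 (n = 2), 14104 ± 825 at CT5 (n = 4), 14680 ± 1184 at CT9, 15151 ± 743 at CT13, 14289 ± 467 at CT17 and 13765 ± 301 at CT21. The mean was thus higher in Bmal1IEC-/- mice at each time, and the mice overlapped at CT5, CT9, CT13 and CT21 but not at CT1 and CT17. The median fitted difference of the 77 subunits was 0.23 at CT1, 0.06 at CT5, 0.06 at CT9, 0.09 at CT13, 0.12 at CT17 and 0.04 at CT21. When single mice were dropped from the fit, the median lay between 0.23 and 0.28 at CT1, 0.04 and 0.10 at CT5, 0.02 and 0.12 at CT9, 0.06 and 0.12 at CT13, 0.09 and 0.14 at CT17, and 0.01 and 0.06 at CT21, so that CT1 stayed highest and the order of the other times was not settled. The fitted value over all 46 mice was above 0 for 74 of 77 subunits at CT1 (49.4% of all genes), 61 at CT5 (48%), 64 at CT9 (48.8%), 67 at CT13 (49.5%), 75 at CT17 (51.8%) and 58 at CT21 (50.4%).

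**Figure D3:**
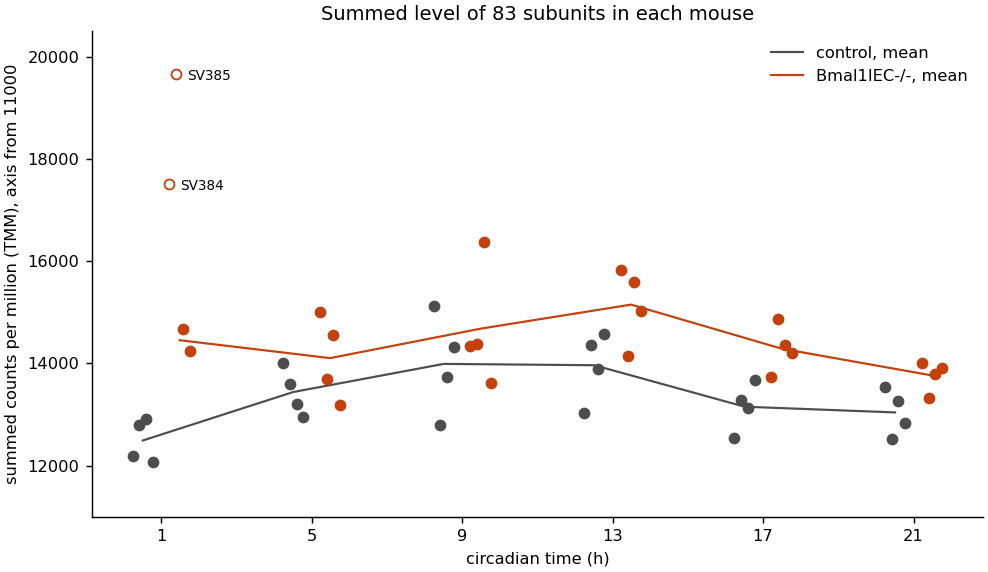
Summed level of the 83 subunits in each of the 48 mice, as CPM scaled by TMM, by circadian time and genotype. Filled points are mice of the tests, lines join their group means, and open points are SV384 and SV385. These are the highest of all mice at 17502 and 19654, and the vertical axis does not start at 0.

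Few subunits were called at single times. At CT1, 2 of 77 rose (2.60%), against 1.71% of all genes called and 0.883% called higher. Sdhd was at 264, 272, 262 and 263 CPM in the 4 control mice and at 320 and 330 CPM in the 2 Bmal1IEC-/- mice, without overlap (1.22-fold, adjusted p = 0.0255 in edgeR). Ndufa6, an accessory subunit of complex I, was at 105, 105, 99.6 and 117 CPM in control and at 138 and 134 CPM in Bmal1IEC-/- mice, also without overlap (1.27-fold, adjusted p = 0.0255 in edgeR). The count at CT1 was unsteady both ways. It was 0 without SV479 or without SV480, which leaves 1 Bmal1IEC-/- mouse, 1 without SV468, and 4 to 8 without any 1 of 31 other mice.

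At CT13, 3 of 77 subunits rose (3.90%), against 5.13% of all genes called and 2.47% called higher. Ndufs3 was at 74.3, 90.8, 80.6 and 90.9 CPM in control and at 106, 103, 111 and 107 CPM in Bmal1IEC-/- mice (1.27-fold, adjusted p = 0.00909 in edgeR). Sdhd was at 291, 303, 307 and 292 CPM in control and at 370, 333, 371 and 350 CPM in Bmal1IEC-/- mice (1.2-fold, adjusted p = 0.0032 in edgeR). Uqcrc2 was at 329, 371, 392 and 379 CPM in control and at 434, 412, 448 and 447 CPM in Bmal1IEC-/- mice (1.18-fold, adjusted p = 0.0221 in edgeR). All 3 had every Bmal1IEC-/- mouse above every control. The count was 1 without control mouse SV396 and 5 without SV410, SV418 or SV448. None was called at CT5, CT9, CT17 or CT21, where 2, 4, 13 and 7 subunits had an unadjusted p under 0.05 in edgeR. Of all genes, 0.475%, 2.03%, 1.24% and 0.423% were called at these times, and 6.33%, 10.9%, 7.98% and 8.32% had an unadjusted p under 0.05.

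**Figure D4:**
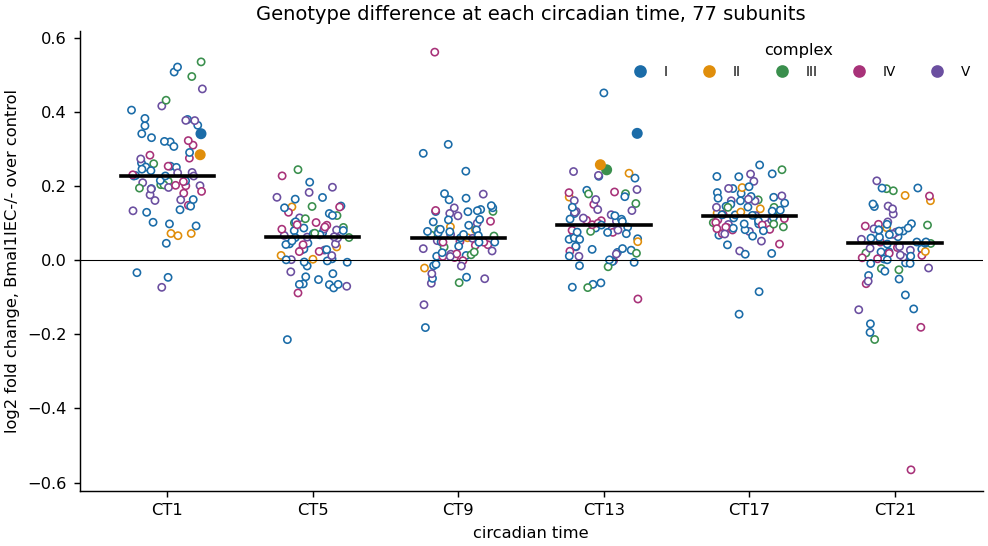
Fitted log2 fold change of Bmal1IEC-/- over control at each of 6 circadian times, 1 point per subunit, coloured by complex. Filled points passed an adjusted p of 0.05 and black lines are medians. The median is highest at CT1 (0.23), where there are 2 Bmal1IEC-/- mice. It is between 0.04 and 0.12 at the other times, whose order changes when single mice are left out. The test of a difference between times called no subunit and 0.645% of all genes.

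Grouped into day (CT1, CT5 and CT9) and night (CT13, CT17 and CT21), 3 subunits rose by day (Atp5o, Atp5l and Ndufa6), or 3.90% against 3.04% of all genes called and 1.57% called higher. By night 7 rose, among them Uqcrc2, Sdhd, Atp5g3, Sdhb, Sdha and Ndufs1, or 9.09% against 4.46% called and 1.93% called higher. The test of the difference between day and night called no subunit and 0.0594% of all genes. Its smallest adjusted p among subunits was 0.459 in edgeR, and 4 subunits (5.19%) had an unadjusted p under 0.05, against 8.99% of all genes, so that no subunit was shown to respond differently by day and by night.

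The 2 mice outside the tests had the highest levels of all. SV384 summed to 17502 CPM and SV385 to 19654 CPM over the subunits, against 12073 to 15119 CPM in control mice and 13177 to 16375 CPM in the 22 other Bmal1IEC-/- mice. SV384 exceeded every one of the 46 mice in 42 of 77 subunits and SV385 in 64. The share of all genes in which they did so was not counted. Both mice were over 2-fold away from their expected level in many genes (189 and 531). Whether these counts are particular to the subunits was thus not tested. Compared with the mean of the 22 Bmal1IEC-/- mice, the median subunit was 1.23-fold in SV384 and 1.37-fold in SV385. The most extreme was Uqcrq with 107 and 121 CPM, against 75.4 CPM at most in the others (2.16-fold and 2.45-fold). Cox7b was at 529 and 577 CPM against 353 CPM at most. Sdha was at 580 CPM in SV384, under the mean of 622 CPM, and at 731 CPM in SV385, above the 691 CPM of the highest of the 46 mice. These subunits were picked after their values were seen. The mitochondrially encoded transcripts were also high, with 66735 and 80326 CPM in sum against 39241 to 64884 CPM in the 46 mice. The 2 mice also stood apart in the markers of epithelium and smooth muscle given above, and the part of tissue composition or RNA quality in these values was not tested. With all 48 mice, 43 subunits were called over all times, against 12.7% of all genes, and 66 at CT1, against 26.5% of all genes, where the median difference was 0.45.

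To assess rhythms, a 24-h cosine was fitted in each genotype. In control mice 45 of 77 subunits were rhythmic (58.4%), a share close to the 52.3% of all genes. Their timing was narrow: 39 of the 45 (86.7%) peaked between 8 and 16 h, in late day and early night, as did 34.3% of the 7049 rhythmic genes. Rhythmic subunits of this window were 50.6% of the 77, and rhythmic genes of it 17.9% of all genes. Swings were modest, with a median of 1.19-fold from trough to peak over the 77 subunits against 1.3-fold over all genes, and 5 subunits reached 1.5-fold (Uqcrq, Ndufs7, Ndufa11, Atp5d and Uqcr11).

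Ndufb10, an accessory subunit of complex I, had the clearest rhythm (adjusted p = 6.19e-07 in edgeR, fitted peak at 14.8 h). Its mean rose from 82.8 ± 4.62 CPM at CT1 (SD, n = 4) to 126 ± 6.93 CPM at CT13 in control mice, and all mice at CT13 exceeded all at CT1. Atp5d, the δ subunit of the ATP synthase, went from 121 ± 12.7 CPM at CT1 to 202 ± 33.5 CPM at CT9 and 155 ± 14.9 CPM at CT21 (1.58-fold swing, peak at 11.8 h, adjusted p = 2.49e-05 in edgeR). Atp5g2 peaked at 9.58 h, with 79.9 ± 2.44 CPM at CT1 and 116 ± 13.9 CPM at CT9 (adjusted p = 4.85e-05 in edgeR). Ndufs7, the core subunit with the last iron-sulphur cluster before ubiquinone, had 33.0 ± 4.72 CPM at CT1 and 60.4 ± 6.82 CPM at CT13, without overlap (1.65-fold, peak at 11.7 h, adjusted p = 0.000377 in edgeR). Ndufa11 (1.63-fold, peak at 13.8 h), Ndufc2 (1.39-fold, 11.3 h) and Uqcrc1 (1.32-fold, 10.4 h) belonged to the same window. Ndufs1, the largest subunit of complex I, peaked earlier at 4.94 h (1.23-fold, adjusted p = 0.000152 in edgeR), and Uqcrc2, Sdha, Ndufb3, Atp5s and Ndufb4 were the other rhythmic subunits outside 8 to 16 h. The largest swing was that of Uqcrq (1.75-fold, adjusted p = 0.00243 in edgeR), named for its size. It stood at 22.9 to 38.2 CPM at CT1 and at 49.4 to 71.2 CPM at CT13, while its mice at CT9 spread from 37.2 to 75.4 CPM.

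**Figure D5:**
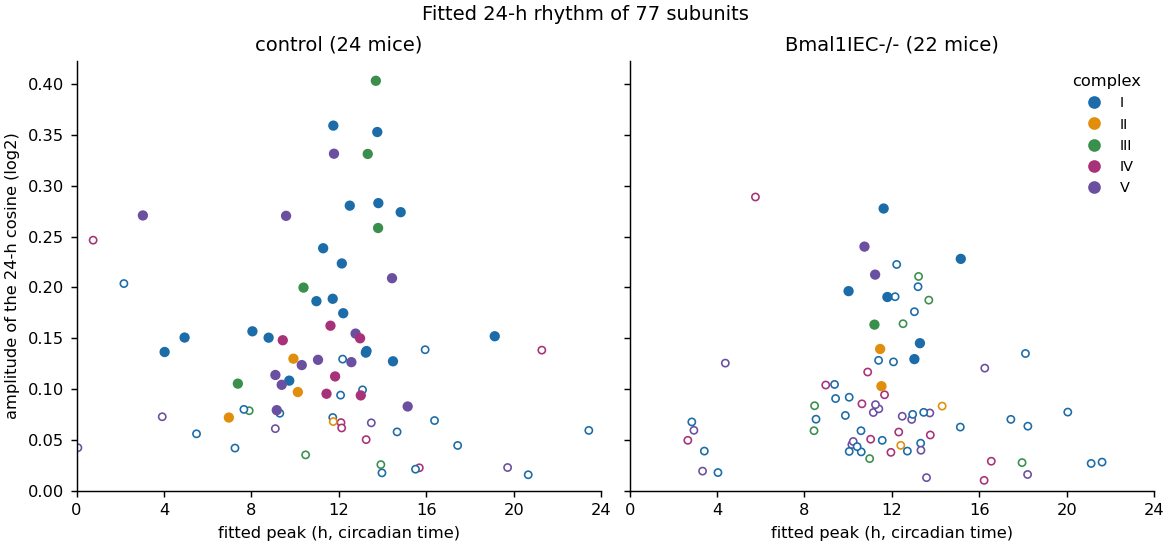
Amplitude of the fitted 24-h cosine (log2, from the mean to the peak) against its peak time for the 77 subunits, in control mice on the left and Bmal1IEC-/- mice on the right, coloured by complex. Filled points passed an adjusted p of 0.05. In control mice 45 points are filled and 39 of them lie between 8 and 16 h, and in Bmal1IEC-/- mice 11 are filled.

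In Bmal1IEC-/- mice 11 of 77 subunits were rhythmic (14.3%), against 28.9% of all genes, and all 11 were also rhythmic in control mice, as were 24.9% of all genes in both genotypes. They were led by Ndufb10 (fitted peak at 15.2 h, adjusted p = 0.000169 in edgeR), Ndufs3 (10 h, adjusted p = 0.000679), Atp5g2 (10.7 h, adjusted p = 0.00189) and Uqcrc1 (11.2 h, adjusted p = 0.00947). Their fitted peaks lay between 0.54 h earlier and 1.54 h later than in control mice, with a median of 0.82 h later. The amplitude was lower in Bmal1IEC-/- mice in 64 of 77 subunits (83.1%), as in 68.4% of all genes, and the median swing was 1.11-fold. The difference in rhythm itself called 0 subunits and 0.987% of all genes. Its smallest adjusted p was 0.219 in edgeR, for Ndufs1, the single subunit with an unadjusted p under 0.05 (10.7% of all genes), and DESeq2 also called 0. The 34 subunits called in control mice alone (44.2%, against 27.4% of all genes) were therefore not shown to have lost their rhythm. The count in Bmal1IEC-/- mice was also unsteady, since it was 5 without SV395, 6 without SV445 and 7 without SV449.

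The strength of the rhythm went with the make-up of the transcript. Over 77 subunits, the control amplitude had a Pearson r of 0.55 with the GC content of the principal transcript (Spearman's rho 0.56). Over 13475 genes it was 0.06 (0.11). With the mean level the r was -0.44 over the subunits, against -0.29 over all genes. These are correlations across genes of the same libraries, which share depth and base composition and are not independent. Of the 38 subunits with a GC content above the median, between 51.9% and 61.1%, 28 were rhythmic in control mice with a median swing of 1.23-fold. Of the 39 with a GC content of 51.7% or less, 17 were rhythmic, with a median swing of 1.11-fold. The genotype difference showed no such relation (r = 0.11), with medians of 0.09 in both classes and 11 and 17 called. The difference at CT1, which rests on 2 Bmal1IEC-/- mice, had a Pearson r of 0.48 with GC content, against 0.13 over all genes. With transcript length the r was -0.51, against -0.09 over all genes. The control mice at CT1 also enter the control amplitude, so these values are not separate support.

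Related gene groups were looked at beside the subunits. Of all genes, 5.41% were called higher and 6.44% lower, so that a single call in a small group is not a result about that group. Of 15 clock genes 4 rose and 7 fell. Of the 76 mitochondrial ribosomal proteins tested 14 rose and none fell (median log2 0.10), led by Mrps5 and Mrps30 (log2 0.19 and 0.21). Enzymes of the citric acid cycle and pyruvate dehydrogenase rose in 7 of 16, led by Fh1 (0.14) and Idh3g (0.13), with a median of 0.09. Fitted values were above 0 in 74 of 76 mitochondrial ribosomal proteins and in 14 of 16 of these enzymes. The broad, small rise was thus not particular to the respiratory chain subunits. Of the assembly factors 6 of 44 rose, led by the haem synthesis enzyme Cox10 (0.27) and Surf1 (0.14), with a median of 0.06. Of 21 other subunits, carriers and coenzyme Q enzymes 5 rose, led by Coq5 (0.18) and Cox4i1 (0.16), and the ADP/ATP carrier Slc25a5 fell by 0.07 (median 0.05). Of 12 regulators of mitochondrial biogenesis 1 rose, the coactivator Ppargc1b (0.36 ± 0.08, adjusted p = 0.00146 in edgeR), with a median of 0.05. Of the 12 mitochondrially encoded subunits tested 2 rose, mt-Co3 (0.19) and mt-Co1 (0.11), with a median of 0.09. Their range among mice, 44061 to 59032 CPM in control and 39241 to 64884 CPM in Bmal1IEC-/- mice, was wider than that of the nuclear subunits.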

How the data were processed

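Colon RNA of 48 mice was prepared with a stranded TruSeq mRNA kit and read as pairs. The authors trimmed reads with Trimmomatic 0.39, aligned them to mm10 with STAR 2.7.5c and counted them on exons with featureCounts 1.4.6 at a mapping quality of at least 4, leaving out reads on several features. The annotation release and strand setting were not given in the sources used here. The deposited values are whole-number counts for each gene that had not been normalized. Reads shared with processed pseudogenes or overlapping genes may be lost, so that such genes are uncertain. The 12 symbols of the rule that are not protein-coding in GENCODE vM21 were left out, and 55141 of 55401 identifiers matched that release.

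Genes were filtered with filterByExpr by genotype (13478 kept) and tested with edgeR 4.0.16 (TMM, quasi-likelihood F test, Benjamini-Hochberg over all genes). The models held genotype and time, genotype-specific 24-h cosine and sine, genotype by period, and 12 group means. Labels name no separate batch, and mice are separate animals; p-values measure the spread between them. DESeq2 1.42.0, other scalings and filters, JTK_cycle, all 48 mice and leaving out each mouse were alternatives; leaving out CT1 and a smooth muscle covariate were chosen after seeing the data. Genes named by rule are the called subunits with the smallest p in each test (up to 8, or 4 for the rhythm in Bmal1IEC-/- mice), the highest and lowest per length, tissue isoforms and up to 2 per direction in other lists; others were named after their values were seen, to complete a count or for their size. Members and lists were chosen with earlier results of these data known. Lengths and GC content come from the principal GENCODE transcript of best support, the shortest where several tie. The genotype, rhythm, DESeq2 and JTK_cycle steps were tested on simulated data. R 4.3.3, Python 3.11.15, pandas 2.3.3 and matplotlib 3.10.9 were used. The values of 1 subunit are not reported here.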

Additional observations from a re-analysis of the deposited data

Results flagged for a closer look

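The summed subunit level of SV384 (17502 CPM) and SV385 (19654 CPM), Bmal1IEC-/- mice at CT1 outside the tests, lay above the highest of the 46 other mice (16375 CPM). Among the summed levels of all subunits and of each complex in the 12 groups of 4 mice, 72 groups of values in all, 2 held a mouse apart from the other 3, where chance gives about 1 in 20. Complex II reached 1431 CPM in the highest Bmal1IEC-/- mouse at CT9, against 1307 CPM in the next. Complex IV reached 2355 CPM in the highest Bmal1IEC-/- mouse at CT17, against 2187 CPM in the next.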

How the results depend on the processing

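The 28 subunits called over all times became 43 with all 48 mice, with the 28 among them, 15 without a filter beyond 1 count, 18 without CT1 and 0 when tested against a fold of 1.2. DESeq2, other scalings, no time term and the smooth muscle marker level gave counts within 1.5 times, and the median stayed within the spread between mice. Rhythmic subunits in Bmal1IEC-/- mice numbered 11, against 28.9% of all genes, and 4 with all 48 mice, against 29.5%. They were 7 with time as a factor, against 24.9% of all genes, and 3 with JTK_cycle, against 16.3%. With total counts only they numbered 20 and without the filter 7, where the share of all genes was not counted. Calls at CT1 were 66 with all 48 mice, 5 with DESeq2 size factors and 8 without the filter, and calls at CT13 were 7 with total counts only and 1 without the filter. The causes were not tested.

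Leaving out each of 46 mice gave 22 to 36 calls over all times, 37 to 46 rhythmic subunits in control and 5 to 15 in Bmal1IEC-/- mice, 0 differences in rhythm, 0 by period, 0 to 8 calls at CT1, 0 at CT5, 0 to 1 at CT9 (1 without SV402 or SV418), 1 to 5 at CT13, 0 at CT17 and 0 at CT21, and a median of 0.09 to 0.11. At CT13 there were 5 without SV410, SV418 or SV448. At CT1 there were 0 without SV479 or SV480, which leaves 1 Bmal1IEC-/- mouse assumed to vary like the others, 1 without SV468, and 4 to 8 without any of 31 other mice. Of the 28 called subunits 22 were called in all 46 fits. No paired analysis was possible because the labels give the groups no shared replicate numbers. Called differences over all times were of at most 1.14-fold, and for the 49 subunits not called, the upper 95% bound reached 0.29 on the log2 scale.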
